A study of Mus musculus with 18 samples.

Results

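Annexin genes encode proteins that bind acidic phospholipids in membranes when calcium is present. The count table held 8 annexin genes chosen by symbol, Anxa1, Anxa2, Anxa3, Anxa4, Anxa5, Anxa6, Anxa7 and Anxa11, among 35655 genes. All 8 passed the filter on low counts, with 10312 genes tested in all. Levels were measured by MACE-seq, which counts the 3′ ends of polyadenylated transcripts, in carotid tissue cut by laser from within the outer elastic lamina, neointima included. All libraries came from C57/BL6 mice of the WT genotype, on day 0, labelled pre-injury (4 libraries), and on days 7 (4), 14 (3), 21 (4) and 28 (3) after wire injury. In the study's methods, wire injury was applied to the left carotid of male mice aged 11 weeks, and the labels give up to 70 sections per sample. The deep wire injury that the paper describes strips the endothelium and disrupts the internal elastic lamina, and a neointima then grows within the vessel. The methods name the right carotid of operated animals as the control vessel, while the labels call day 0 pre-injury, and 3 of the 4 day 0 libraries carry the mouse number of a day 21 library. Which side the day 0 vessels came from is not given in the labels. The labels do not say that every library came from a separate animal, so the p-values measure the spread between these libraries.

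An annexin carries a conserved core that docks on the membrane through calcium and a variable N-terminal tail that binds partner proteins. Annexins take part in membrane repair, vesicle traffic and the anchoring of the cytoskeleton, and some act outside the cell on clotting, on fibrinolysis and on leukocytes. In the vessel wall they are known from endothelium, smooth muscle and macrophages alike.

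On day 7, 4 annexin genes were called against day 0. Anxa2 rose 1.94-fold and Anxa5 1.66-fold, while Anxa6 fell 2.25-fold and Anxa11 fell 3.30-fold. The other 4 annexin genes did not pass the test. Of these 4 changes, only the Anxa2 call held under all 26 alternative settings, and the Anxa5 call was lost under 15 of them. Those of Anxa6 and Anxa11 were each lost under 1. Across all genes tested, 11.3% were called higher and 8.53% lower on day 7, beside 2 of 8 annexin genes in each direction. The median log2 fold change was -0.10 over the 8 annexin genes and 0.07 over all genes tested. The summed level of the 8 genes was 1915 ± 91.2 CPM (counts scaled to the library size, SD, n = 4) on day 0 and, by day 7, 2211 ± 319 (SD, n = 4), and the ranges of the sums overlapped. In the test over any of the 5 days, Anxa2 (adjusted p = 0.00287), Anxa6 (adjusted p = 0.0163) and Anxa11 (adjusted p = 0.0120) were called, against 18% of all genes tested, and Anxa5 (adjusted p = 0.0882) was not. Adjusted p-values are from the quasi-likelihood test of edgeR with Benjamini-Hochberg adjustment over all genes tested, at a threshold of 0.05, and the comparisons with day 0 share its libraries.

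**Figure D1:**
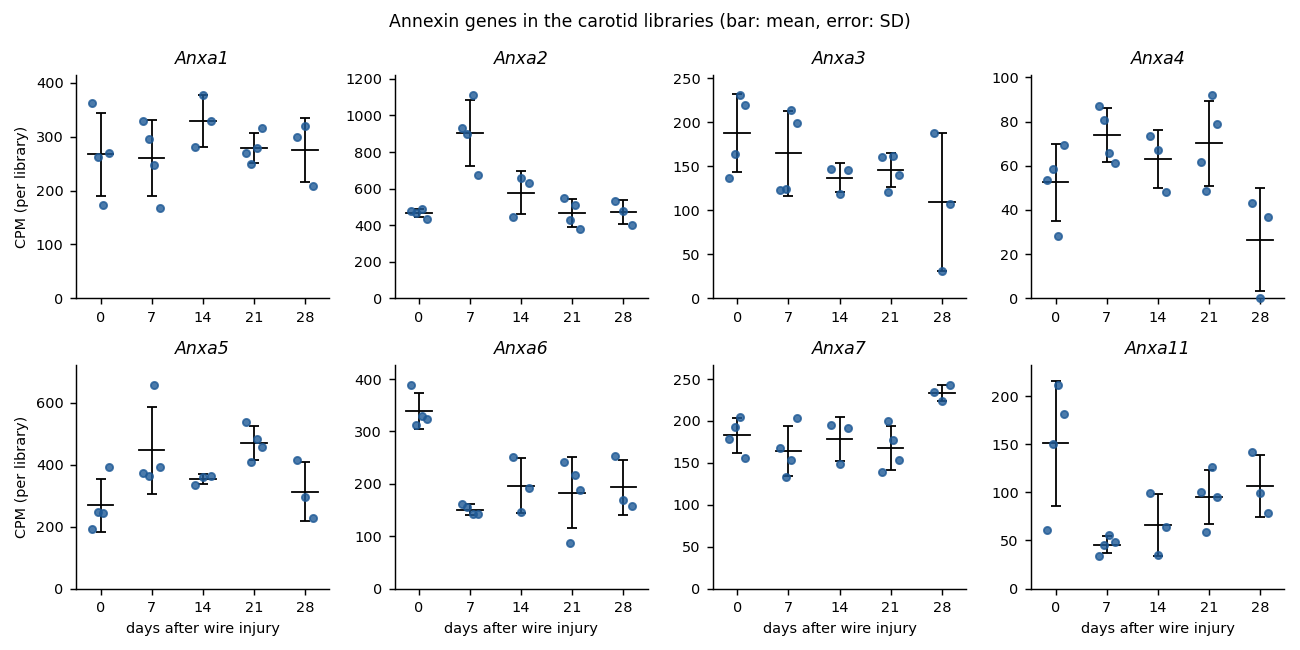
CPM of the 8 annexin genes in each of the 18 libraries by day after wire injury, with points for libraries, bars for means and error bars for the SD (n = 4, 4, 3, 4 and 3). Anxa2 was above its day 0 range in every day 7 library, with values of 675 to 1112 CPM, while Anxa6 and Anxa11 were below theirs.

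The sequences just before the RefSeq start sites of Anxa2 and Anxa11 are shown because these genes had the largest rise and the largest fall on day 7 among the 8. RefSeq promoter windows on GRCm38.p6, running from 250 bases before to 50 after the start, were found for 6 of the 8 genes (Anxa1, Anxa2, Anxa4, Anxa5, Anxa7 and Anxa11). The 250 bases before the start are printed from 5′ to 3′, at chr9:69453433-69453682 on the plus strand for Anxa2 and at chr14:25841905-25842154 on the plus strand for Anxa11. Capitals mark matches on either strand to a TATA box (TATAAA), a GC box (GGGCGG), an AP-1 site (TGACTCA) and a PU.1 core (GAGGAA).
Anxa2: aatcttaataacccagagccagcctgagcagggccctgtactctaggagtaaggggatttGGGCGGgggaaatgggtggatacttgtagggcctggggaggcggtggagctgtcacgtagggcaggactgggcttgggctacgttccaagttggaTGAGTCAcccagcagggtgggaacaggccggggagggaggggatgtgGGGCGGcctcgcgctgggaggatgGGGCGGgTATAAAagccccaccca
Anxa11: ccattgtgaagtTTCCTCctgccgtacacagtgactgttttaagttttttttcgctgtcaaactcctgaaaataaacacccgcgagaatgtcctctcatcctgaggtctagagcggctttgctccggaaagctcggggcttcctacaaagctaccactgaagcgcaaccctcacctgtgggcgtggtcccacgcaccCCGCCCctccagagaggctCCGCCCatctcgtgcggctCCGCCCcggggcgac
The Anxa2 window held 1 TATA box, 1 AP-1 site and 3 GC boxes, none overlapping another. The Anxa11 window held 3 GC boxes and 1 PU.1 core. Among 32851 RefSeq windows of the same length, 13.6% held the TATA box, 35.7% the GC box, 5.20% the AP-1 site and 28.3% the PU.1 core. Neither the CCAAT box (CCAAT, in 37.4% of windows) nor the CArG box (in 1.63%) was found in these windows, and the CArG box was found in that of Anxa5. These matches are descriptions of letters, and binding was not measured.

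Anxa2 lies on GRCm39 at chr9:69360542-69399077 on the plus strand, with 13 exons and a product of 339 residues. Its protein binds S100a10 in a complex that serves on cell surfaces as a receptor for plasminogen and its activator, and that links membranes to actin. Anxa2 levels on day 0 were 478, 465, 486 and 433 CPM. On day 7 they were 931, 897, 1112 and 675 CPM. Every day 7 library was above every day 0 library, and the change was 0.96 ± 0.21 (log2 fold change ± SE, n = 4 and 4, adjusted p = 0.00160 by edgeR). The call held under all 26 alternatives, with log2 fold changes from 0.80 to 1.06 and adjusted p-values up to 0.0332.

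After day 7, mean Anxa2 levels were lower on each later day sampled than on day 7. Day 14 libraries had 443, 660 and 629 CPM, day 21 libraries 549, 426, 510 and 382 CPM, and day 28 libraries 531, 480 and 403 CPM. The mean levels were ordered as day 7, 14, 28, 21 and 0, and the last 4 of these overlapped one another. Against day 7, Anxa2 had fallen on day 21 (log2 fold change -0.95 ± 0.21, SE, adjusted p = 0.00500) and on day 28 (-0.94 ± 0.23, SE, adjusted p = 0.00679). With the mouse number as a block, the day 21 call was lost (adjusted p = 0.0761). On day 14 the difference from day 7 was -0.65 ± 0.23 (SE, adjusted p = 0.196), with all 3 libraries below the day 7 range, and DESeq2 alone called it (adjusted p = 0.0436). Against day 0, the log2 fold change was 0.31 on day 14 (95% interval -0.13 to 0.75), 0.01 on day 21 (-0.40 to 0.41) and 0.02 on day 28 (-0.42 to 0.46).

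S100a10, which encodes the best known partner of annexin A2, also rose on day 7 and was lower on days 21 and 28 than on day 7. Its levels were 377, 276, 301 and 224 CPM on day 0 and 604, 602, 1045 and 452 CPM on day 7. All day 7 libraries were above all day 0 libraries, with a log2 fold change of 1.20 ± 0.28 (SE, adjusted p = 0.00327). From day 7, S100a10 was lower on day 21 (-1.52 ± 0.29, SE, adjusted p = 0.00137) and on day 28 (-2.08 ± 0.33, SE, adjusted p = 0.000153). Against day 0, S100a10 was at 0.35 on day 14, -0.33 on day 21 and -0.88 on day 28 (adjusted p = 0.672, 0.566 and 0.169 by edgeR). The day 28 value was called under 1 of 26 alternatives and ranged from -1.29 to -0.58. With the mouse number as a block, the day 7 rise of S100a10 (0.99, adjusted p = 0.120) and its difference between days 21 and 7 (-1.30, adjusted p = 0.103) lost their calls. Over the 18 libraries, log2 CPM of Anxa2 and S100a10 had a Pearson r of 0.83, and of 0.61 after the day means were subtracted. These libraries share the days and the scaling, and the r values are given as a description.

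**Figure D2:**
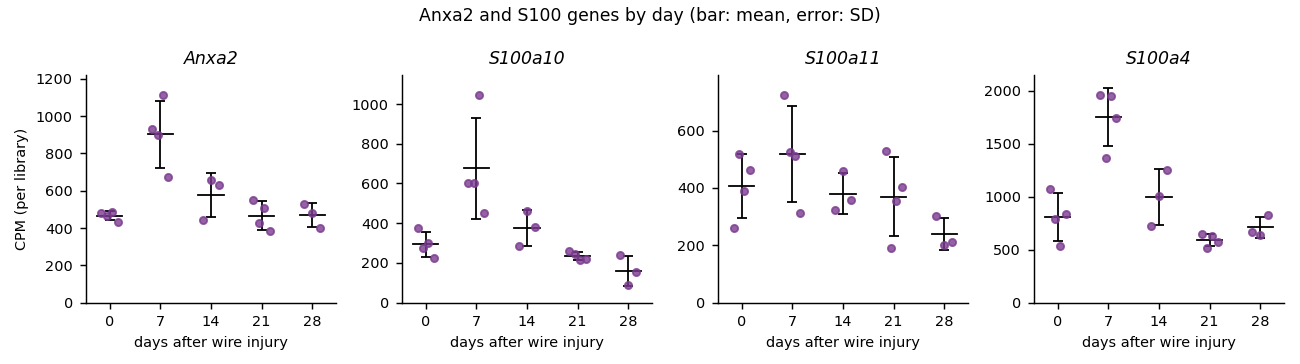
CPM of Anxa2 and of S100a10, S100a11 and S100a4 in each library by day after wire injury, with points for libraries, bars for means and error bars for the SD. Anxa2, S100a10 and S100a4 were above their day 0 ranges in every day 7 library, whereas S100a11 ranges overlapped between these days.

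Among 9 genes for known annexin partners and receptors, 7 were tested, and 3 of these rose on day 7 and 0 fell. Shares over all genes tested were 11.3% higher and 8.53% lower. The median log2 fold change was 0.34 over the 7 genes and 0.07 over all genes tested. Those that rose were S100a10, S100a4, a calcium-binding protein of motile cells (1.12 ± 0.22, SE, adjusted p = 0.000713), and Sri, which encodes the annexin A7 partner sorcin (0.94 ± 0.33, SE, adjusted p = 0.0432). The Sri call was lost under 15 of 26 alternatives, with the largest adjusted p of 0.116 without day 0 replicate 1. S100a11, which encodes a partner of annexin A1, had a log2 fold change of 0.34 ± 0.29 (SE, adjusted p = 0.475) on day 7. This value was 0.09 (adjusted p = 0.899) without day 7 replicate 1, and it was called at 1.12 (adjusted p = 0.0391) with the mouse number as a block. S100a11 fell from day 7 to day 28 (-1.11 ± 0.32, SE, adjusted p = 0.0209), a call lost under 3 of 26 alternatives, namely without day 7 replicate 1 (-0.86, adjusted p = 0.0976) or day 28 replicate 2 or 3 (-1.01 and -1.03). On day 21, S100a6 was the only 1 of the 7 called against day 0, and it fell (-0.79 ± 0.21, SE, adjusted p = 0.0171). That call was lost by limma (-0.69) and without day 0 replicate 1 (-0.65), day 21 replicate 1 (-0.68) or day 21 replicate 4 (-0.76), with adjusted p-values up to 0.0737.

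In plasminogen activation, where annexin A2 is a surface receptor, 6 of 8 genes were tested and 1 rose and 1 fell on day 7. Of all genes tested, 11.3% were called higher and 8.53% lower. The median log2 fold change was 0.88 over the 6 genes and 0.07 over all genes tested. Plau, the urokinase gene, had 0, 7.17, 0 and 6.56 CPM on day 0 and 42.7, 46.7, 181 and 75.9 CPM on day 7 (log2 fold change 4.50 ± 0.83, SE, adjusted p = 0.000309). On day 0 Plau was at 0 or near the limit of detection, so the size of its fold change is uncertain. Its lowest day 7 level, 42.7 CPM, was above its highest day 0 level, 7.17 CPM. Serpine2, which encodes a protease inhibitor, fell by 1.41 ± 0.32 on the log2 scale (SE, adjusted p = 0.00202). Plau and Serpine2 had both turned by day 28, with log2 fold changes against day 7 of -3.92 ± 0.90 (SE, adjusted p = 0.00435) and 1.95 ± 0.34 (SE, adjusted p = 0.000377). Their calls were not examined under the alternatives.

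Anxa1 lies on GRCm39 at chr19:20350792-20368374 on the minus strand, and its product of 346 residues acts through formyl peptide receptors to limit leukocyte entry. Its levels on day 0 were 362, 263, 173 and 270 CPM, and on day 7 they were 329, 297, 247 and 168 CPM. The ranges overlapped, and the log2 fold change was -0.04 with a 95% interval of -0.53 to 0.45 (adjusted p = 0.944). On days 14, 21 and 28 its level was 329 ± 48.1 (SD, n = 3), 279 ± 27.8 (SD, n = 4) and 275 ± 59.3 CPM (SD, n = 3), and every one of these ranges overlapped that of day 0. The receptor genes were near the limit of detection. Fpr1 had 0 counts in all day 0 libraries and at most 1.99 CPM on day 7, and Fpr2 had 0 counts on day 0 and at most 7.12 CPM on day 7, so neither passed the filter.

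Anxa5 lies at chr3:36503072-36530126 on the minus strand, and its product of 319 residues binds phosphatidylserine on dying cells and platelets and hinders clotting. On day 0 its levels were 194, 246, 244 and 392 CPM, and on day 7 they were 374, 365, 658 and 394 CPM. Day 7 replicate 3 stood far above the others, and day 0 replicate 4 lay within the day 7 range. The log2 fold change was 0.73 ± 0.25 (SE, adjusted p = 0.0414). Without day 7 replicate 3 it was 0.45 with an adjusted p of 0.257. The call was also lost without day 0 replicate 1, 2 or 3 (0.60, 0.69 and 0.69), day 7 replicate 1 or 2 (0.75 and 0.77), any day 14 library (0.71 each), and day 21 replicate 2, 3 or 4 (0.68 each). In all, 15 of 26 alternatives lost it, and the direction held in each.

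On day 21, Anxa5 levels were 538, 408, 483 and 456 CPM, and all were above the day 0 range. The log2 fold change was 0.81 ± 0.25 (SE, adjusted p = 0.0443). This call was lost under 11 of 26 alternatives, with values from 0.68 without day 0 replicate 1 (adjusted p = 0.120) to 0.85 without day 21 replicate 2. The other libraries whose removal lost it were day 0 replicates 2 and 3, day 7 replicates 1 and 2, day 14 replicate 3 and day 21 replicates 1, 3 and 4. On day 14 Anxa5 had 336, 362 and 365 CPM and on day 28 it had 417, 294 and 228 CPM, and neither day was called (adjusted p = 0.540 and 0.754). The mean levels were ordered as day 21, 7, 14, 28 and 0, and day 21 did not differ from day 7 beyond the spread (0.08, 95% interval -0.41 to 0.57).

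Of 15 genes for the recognition of phosphatidylserine on dying cells, 12 were tested, and 2 rose and 3 fell on day 7. This was beside 11.3% of all genes tested called higher and 8.53% lower. The median log2 fold change was -0.65 over these 12 and 0.07 over all genes tested. The scavenger receptor genes Cd36 (4.90 ± 0.83, SE, adjusted p = 0.000131) and Stab1 (1.49 ± 0.27, SE, adjusted p = 0.000274) rose. Mfge8, which encodes a bridging protein between phosphatidylserine and integrins, fell by 1.34 ± 0.28 on the log2 scale (SE, adjusted p = 0.00110), and the receptor genes Axl (-1.12 ± 0.25, SE, adjusted p = 0.00205) and Itgb5 (-0.96 ± 0.29, SE, adjusted p = 0.0211) fell too. By day 28 Mfge8 was above its day 7 level (1.19 ± 0.30, SE, adjusted p = 0.00764) and Cd36 and Stab1 were below theirs (-7.33 ± 1.21 and -1.52 ± 0.30, SE, adjusted p = 0.000247 and 0.00120). Calls of Cd36, Stab1, Mfge8, Axl and Itgb5 were not examined under the alternatives.

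Anxa6 lies at chr11:54869654-54924305 on the minus strand, and with 25 exons and 667 residues it encodes the longest product of the 8, in which the annexin core is present as a tandem repeat. The protein organises cholesterol-rich membrane and actin and is abundant in muscle. Its levels on day 0 were 389, 313, 329 and 324 CPM. On day 7 they were 162, 156, 142 and 142 CPM. No library of any later day reached the day 0 range, with 251, 146 and 192 CPM on day 14, 241, 86.8, 217 and 188 CPM on day 21, and 253, 169 and 158 CPM on day 28.

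The Anxa6 decrease passed the test on day 7 (log2 fold change -1.17 ± 0.27, SE, adjusted p = 0.00258) and on day 21 (-0.88 ± 0.27, SE, adjusted p = 0.0392). On day 14 it was -0.78 ± 0.29 (SE, adjusted p = 0.124) and on day 28 it was -0.81 ± 0.29 (SE, adjusted p = 0.175). The day 7 call was lost only with the mouse number as a block (-0.91, adjusted p = 0.0940). The day 21 call was lost without day 21 replicate 2 or 4 (-0.67 and -0.91) or any day 0 library (-0.81, -0.92, -0.89 and -0.90), with adjusted p-values up to 0.105. The day 14 change was called without day 21 replicate 2 (-0.82, adjusted p = 0.0456). Days 14, 21 and 28 were not called against day 7. The differences from day 7 were 0.38 on day 14 (95% interval -0.18 to 0.95), 0.29 on day 21 (-0.24 to 0.82, and -0.04 with the mouse number as a block) and 0.36 on day 28 (-0.21 to 0.93).

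**Figure D3:**
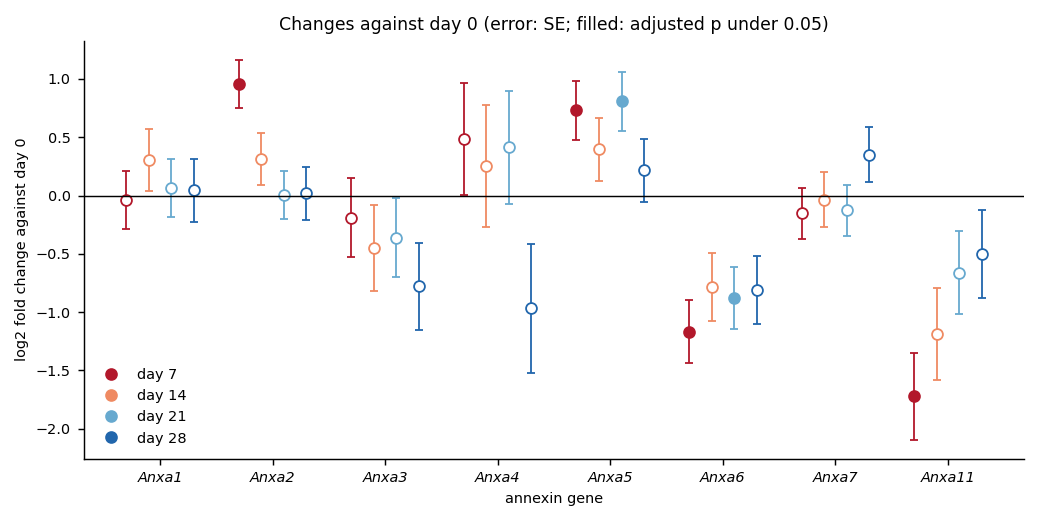
Log2 fold change of each annexin gene against day 0 on days 7, 14, 21 and 28, with the SE as error bars and filled points where the adjusted p of edgeR was under 0.05. Anxa6 was below 0 on every day, Anxa11 was lowest on day 7 at -1.72 and closer to 0 on each later day, and Anxa2 was raised on day 7 at 0.96 and near 0 on days 21 and 28.

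Anxa11 lies at chr14:25842547-25887229 on the plus strand, and its product of 503 residues has a long N-terminal tail and takes part in the last step of cell division and in the transport of RNA granules. Its levels on day 0 were 61.0, 151, 212 and 181 CPM. On day 7 they were 33.8, 44.9, 55.8 and 48.4 CPM. All day 7 libraries were below all day 0 libraries, of which replicate 1 was close to the day 7 range. The log2 fold change was -1.72 ± 0.37 (SE, adjusted p = 0.00145), the largest in size of the 8 genes. Under the alternatives it ranged from -1.98 to -0.69, and the call was lost only with the mouse number as a block (-0.69, adjusted p = 0.343), where by construction the unshared libraries are set mainly against day 0 replicate 1.

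From day 7 onward, the mean level of Anxa11 was higher on each later day. Its levels were 99.2, 35.3 and 63.9 CPM on day 14, 101, 58.5, 127 and 95.4 CPM on day 21, and 142, 99.2 and 78.3 CPM on day 28. Against day 7, day 28 was higher (log2 fold change 1.22 ± 0.39, SE, adjusted p = 0.0380), with no overlap. That call was lost without day 7 replicate 1, 2 or 4 (1.15, 1.25 and 1.26) or day 28 replicate 1 or 2 (0.99 and 1.26), with adjusted p-values up to 0.123. Day 21 was above the day 7 range at 1.06 ± 0.37 (SE, adjusted p = 0.0883), and it was called without day 0 replicate 1 (1.06) or day 21 replicate 2 (1.26), with the stricter filter (1.08) and with only these days fitted (adjusted p = 0.0271). With the mouse number as a block it was 0.09 (adjusted p = 0.945). Against day 0, Anxa11 was at -1.19 ± 0.39 on day 14 (SE, adjusted p = 0.0771), and this was called without day 0 replicate 1 (-1.44) or day 14 replicate 1 (-1.58), without a filter (-1.17) and by DESeq2 (-1.20). With the mouse number as a block it was -0.15 (adjusted p = 0.921). On days 21 and 28 the values against day 0 were -0.66 ± 0.35 and -0.50 ± 0.38 (SE, adjusted p = 0.285 and 0.570), and the day 28 value turned to 0.53 (adjusted p = 0.690) with the mouse number as a block.

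The last exon of Anxa11 shares 426 bases with Plac9, a gene on the other strand. Strand use in the counting is not given in the sources used here, and without it reads of Anxa11 and Plac9 cannot be told apart there. The Plac9 level of 1563 ± 863 CPM on day 0 (SD, n = 4) was followed by 451 ± 196 CPM in the 4 libraries of day 7 (SD), and Plac9 fell by 1.79 on the log2 scale (adjusted p = 0.00220). Log2 CPM of Anxa11 and Plac9 had an r of 0.58 over the 18 libraries and of 0.19 after the day means were subtracted. The part of Plac9 in the Anxa11 values was not tested. Apart from Anxa4, whose last exon shares 753 bases with the lncRNA gene Gm44036 on the other strand, no other annexin gene of the 8 shared its last exon with a gene.

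Anxa7 lies at chr14:20505328-20530201 on the minus strand, and its product of 463 residues, also with a long tail, takes part in exocytosis and binds sorcin. Its levels were 179, 192, 204 and 156 CPM on day 0 and 167, 133, 153 and 203 CPM on day 7, and they overlapped (log2 fold change -0.15, 95% interval -0.58 to 0.28, adjusted p = 0.710). On day 28, with 234, 223 and 243 CPM, all 3 libraries were above the day 0 range, but the change of 0.35 ± 0.23 did not pass the test (SE, adjusted p = 0.507). Days 14 and 21 ranged from 148 to 195 and from 140 to 199.8 CPM.

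Anxa3 (chr5:96940544-96993828, plus strand, 323 residues) and Anxa4 (chr6:86713675-86771064, minus strand, 319 residues) encode annexins that aggregate membranes, and annexin A4 is best known from epithelia. On day 7 Anxa3 changed by -0.19 ± 0.34 (SE, adjusted p = 0.775) and Anxa4 by 0.49 ± 0.48 (SE, adjusted p = 0.563), and neither passed the test. Both were low in 1 library of day 28. Anxa3 levels on that day were 188, 31.4 and 107 CPM, and Anxa4 levels were 43.1, 0 and 36.8 CPM. In that library, replicate 2, a count of 0 for Anxa4 allows up to 4.96 CPM, from 3 counts.

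The lowest Anxa4 level on day 0 was 28.3 CPM and the highest 69.6 CPM. On days 7, 14 and 21 Anxa4 ranged from 61.3 to 87.3, from 48.3 to 73.6 and from 48.4 to 92.1 CPM. Against day 7, Anxa4 on day 28 was at -1.45 ± 0.56 (SE, adjusted p = 0.0839), with all libraries below the day 7 range. Without day 28 replicate 2, the library with 0 counts, it was -0.89 (adjusted p = 0.178). Without day 28 replicate 1 it was called at -1.96, and it was also called by DESeq2, by limma and without a filter on low counts. Anxa3 on day 28 was at -0.78 against day 0 and at -0.59 against day 7 with all libraries (adjusted p = 0.332 and 0.329). Without replicate 2, the low library, these values were -0.34 and -0.16 (adjusted p = 0.708 and 0.816), with the mouse number as a block the value against day 0 was -0.41 (adjusted p = 0.793), and without replicate 1 they were called at -1.43 and -1.22 (adjusted p = 0.0389 and 0.0372).

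Over the later days fewer of the 8 genes passed the test. Days 14 and 28 had 3 libraries each, and a smaller count of calls there does not show a return to day 0 levels. Anxa6 was at -0.78, -0.88 and -0.81 against day 0 on days 14, 21 and 28, and only day 21 was called. On day 14, 0 of 8 were called by edgeR against day 0, beside 4.80% of all genes called higher and 1.42% lower, with 2 at an unadjusted p under 0.05, 1 called by DESeq2 (Anxa11) and 0 by limma. On day 21, Anxa5 rose and Anxa6 fell, beside 5.92% of all genes called higher and 2.93% lower. On day 28, 0 of 8 were called by edgeR, DESeq2 or limma, beside 0.970% higher and 0.369% lower, with 2 at an unadjusted p under 0.05 (Anxa3 and Anxa6).

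Against day 7, the count of annexin genes called was 0 of 8 on day 14, with 1 at an unadjusted p under 0.05 (Anxa2), 1 called by DESeq2 and 0 by limma, beside 1.33% of all genes called higher and 0.330% lower by edgeR. On day 21 it was 1 lower (Anxa2), beside 4.03% of all genes higher and 3.23% lower. On day 28 it was 1 higher (Anxa11) and 1 lower (Anxa2), beside 6.40% higher and 8.05% lower.

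The cell make-up of the libraries, read from marker genes, moved with the same days. On day 7, 11.3% of all genes tested were called higher and 8.53% lower. All 9 tested of 10 contractile smooth muscle genes fell on day 7, and their summed level was 38541 to 44243 CPM on day 0 and 1736 to 8070 CPM on day 7, with 25210 to 32954 CPM on day 28. All 12 macrophage genes rose on day 7, with sums of 108 to 514 CPM on day 0, when Mpeg1 was at 0, and 4704 to 6888 CPM on day 7. In bulk tissue, fewer cells of a type and less RNA per cell cannot be told apart. Endothelial sums were 642 to 1075 CPM on day 0 and 545 to 1830 CPM on day 7 (3 of 8 genes higher and 1 lower), and fibroblast sums were 1407 to 2589 and 949 to 1799 CPM (1 of 8 higher and 3 lower). Neutrophil sums were 26.8 to 99.9 and 228 to 794 CPM (4 of 4 tested genes higher, of 10), with Ly6g, Mpo, Elane and Camp at 0 on both days. Erythroid sums were 40.2 to 369 and 164 to 2347 CPM (4 of 5 higher). The 7 T cell genes, at 0 to 29.8 and 21.9 to 42.7 CPM, did not pass the filter, and the genes of fat, nerve and striated muscle summed to at most 17.9 and 64.7 CPM.

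On day 21, when Anxa5 and Anxa6 were called, these markers also differed from day 0. Of all genes tested, 5.92% were called higher and 2.93% lower that day. The contractile sum was 9677 to 24641 CPM (6 of 9 tested genes lower) and the macrophage sum 1817 to 3445 CPM (12 of 12 genes higher). The fibroblast sum was 2960 to 4223 CPM (2 of 8 higher and 1 lower), above its day 0 range in every library, and the endothelial sum was 619 to 1251 CPM (2 of 8 higher). Neutrophil sums were 111 to 597 CPM (3 of 4 tested higher), with Ly6g, Mpo, Elane and Camp at 0, erythroid sums 32.3 to 291 CPM and T cell sums 23.3 to 52.0 CPM. The genes of fat, nerve and striated muscle summed to 19.7 to 249.6 CPM (1 of 3 tested higher), above their day 0 range in every library. The part of these markers in the day 21 values of Anxa5 and Anxa6 was not tested.

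Across the 18 libraries, log2 CPM of Anxa2 had an r of -0.85 with the contractile sum and of 0.60 with the macrophage sum. The values for Anxa6 were 0.69 and -0.76, and those for Anxa11 were 0.77 and -0.78. After the day means were subtracted, the r with the contractile sum was -0.54 for Anxa2, 0.48 for Anxa6 and 0.37 for Anxa11, and the r with the macrophage sum was 0.17, -0.23 and -0.67. For Anxa5 the same r values were -0.53 and 0.62, and -0.07 and -0.18 within days. Anxa7, not called on any day, had an r of 0.52 with the contractile sum, and of 0.50 within days. With that sum, Anxa1, Anxa3 and Anxa4 had r values of -0.08, 0.002 and -0.29. Other markers also gave such values, as Anxa2 with the neutrophil sum (0.61, and 0.25 within days) and Anxa1 with the endothelial sum (-0.61 and -0.67). The libraries share the days and the scaling, and the part of cell make-up in the annexin changes was not tested.

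**Figure D4:**
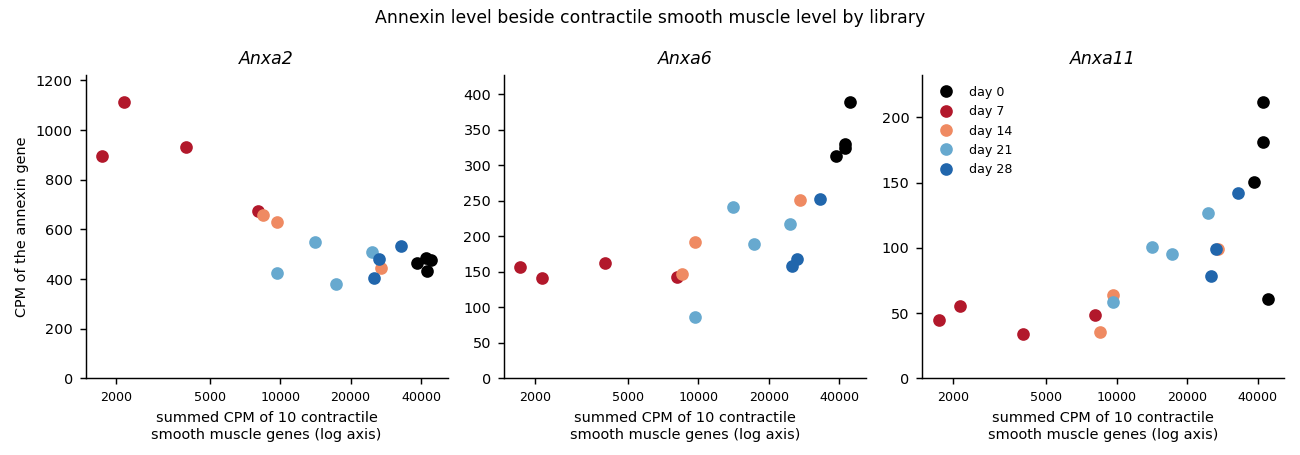
CPM of Anxa2, Anxa6 and Anxa11 against the summed CPM of 10 contractile smooth muscle genes (log axis) in the 18 libraries, coloured by day. Anxa2 was highest and Anxa11 low in the day 7 libraries, which had the lowest contractile sums at 1736 to 8070 CPM, and Anxa6 was highest in the 4 day 0 libraries.

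The genes whose log2 CPM followed each annexin gene most closely over the 18 libraries differed between the 3 called over any day. For Anxa2 they were Hmga1b (r = 0.91), Gm29666 (0.89) and Kif18b (0.89). For Anxa6 they were Hspb6 (0.93), which encodes a small heat shock protein of smooth muscle, Arl4a (0.91) and Ptprz1 (0.88). For Anxa11 they were Clic4 (0.88), Tpm1 (0.86), which encodes a tropomyosin, and Rbpms (0.86). These are the highest of 10312 genes by choice, and they are given as a description. Among the 28 pairs of annexin genes, Anxa3 and Anxa4 had the highest r, at 0.75 and 0.72 within days. Both genes had their lowest level in day 28 replicate 2 (31.4 and 0 CPM), and their r without this library was not computed. Anxa6 and Anxa11 had 0.66 and 0.46 within days, and Anxa2 and Anxa11 had the lowest r at -0.62 and -0.05 within days.

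In membrane repair, a process in which annexins plug wounds in the plasma membrane, 12 of 13 further genes were tested. On day 7, 1 rose and 2 fell, beside 11.3% of all genes tested called higher and 8.53% lower. The median log2 fold change was -0.03 over these 12 and 0.07 over all genes tested. Myof, the myoferlin gene, rose by 1.11 ± 0.39 (log2 fold change, SE, adjusted p = 0.0462). Dysf, the dysferlin gene, had 83.4, 49.0, 68.6 and 69.6 CPM on day 0 and 33.8, 21.6, 35.9 and 16.1 CPM on day 7, and fell by 1.33 ± 0.38 on the log2 scale (SE, adjusted p = 0.0128). Ahnak, whose giant product binds annexin A2 with S100a10, fell by 0.61 ± 0.18 (SE, adjusted p = 0.0170) on day 7, while Anxa2 rose. The calls of Myof, Dysf and Ahnak were not examined under the alternatives.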

How the data were processed

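Every value and main test used the estimated counts per gene that the authors made with Salmon and deposited as whole numbers. Per the submitters' processing notes and the paper's methods, duplicates were removed by molecular identifiers and reads were quantified with Salmon 1.9.0 on mm39, which is GRCm39. The annotation release and the use of the strand are not given in the sources used here. The authors also deposited a normalised signal per gene, made with DESeq2 1.36.0, which served in 1 alternative only.

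Groups were the days in the labels. Totals were 440675 to 878310 counts, with 10674 to 13361 genes with a count per library. CPM were computed per library on TMM-scaled library sizes. These counts were tested with edgeR 4.0.16 under R 4.3.3 (filterByExpr by day, TMM, quasi-likelihood test, 1 fit over 18 libraries, Benjamini-Hochberg adjustment over 10312 genes, threshold 0.05). 95% intervals of log2 fold changes are normal intervals from the SE. The floor is 3 counts and covers counting error only. Correlations used log2 CPM with a prior count of 2. Steps were tested on simulated data.

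The members and gene lists were chosen with earlier results of these data known. All 8 members were named, and from each list up to 3 genes per direction with the smallest p on day 7 among those called, besides S100a10, S100a11, Fpr1, Fpr2 and, for each annexin gene called over any day, the 3 genes with the highest r. S100a6, Plac9 and Gm44036 were named after their values or overlaps were seen.

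Replicate numbers do not pair the libraries: residuals of same-numbered libraries had a median r of -0.01 over 33 pairs. In 3 cases a library of day 0 and a library of day 21 carry an identical mouse number, and their residuals had an r of -0.01 to 0.06. Pairs that share neither number had an r of -0.29 to 0.23, so 3 pairs cannot show whether animals were shared. No block was used in the main tests, and the mouse number served as a block in an alternative. Alternatives were RLE scaling, no filter or a stricter filter (minimum count 30), only the 2 days compared, blocks for replicate and mouse numbers, DESeq2 1.42.0, limma 3.58.1 on log2 of the deposited normalised values plus 1, and each library left out in turn. For single genes, the alternatives were examined only for the 8 annexin genes, Anxa8, S100a10, S100a11, S100a4, S100a6, Sri and Plac9.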

Additional observations from a re-analysis of the deposited data

Results flagged for a closer look

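Anxa5 in day 7 replicate 3 stood at 658 CPM, against 365 to 394 CPM in the other 3 libraries of that day. It was found by a test for a single far sample over 24 groups of 4 libraries, of which it was the only 1 found. Chance alone finds such a sample in about 1 in 20 groups, so 1 find over 24 groups is near what chance gives.

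The change of 2 annexin genes against day 0 differed between days by a direct test in edgeR. Against day 7, the log2 fold change of Anxa2 was -0.95 (adjusted p = 0.00500) on day 21. On day 28 it was -0.94 (adjusted p = 0.00679). That of Anxa11 was 1.22 on day 28 (adjusted p = 0.0380).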

How the results depend on the processing

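Of the calls of annexin genes, that of Anxa2 on day 7 and that on day 28 against day 7 held under every alternative, and no called change turned its direction. Annexin genes called against day 0 on day 7, 4 in all, became 1 (Anxa2) with the mouse number as a block, 3 (without Anxa5) with the replicate number as a block, and 3 to 4 when a library was left out. Day 14 went from 0 to 1 (Anxa11) without a filter and with DESeq2, and to 0 to 1 without a library. Day 21 went from 2 to 1 (Anxa6) with the replicate block and to 0 to 2 without a library; day 28 stayed at 0 to 1 without a library. Against day 7, day 14 went from 0 to 1 with DESeq2 (0 to 0 without a library), day 21 from 1 to 2 (Anxa2 and Anxa11) with the stricter filter or only the 2 days compared, to 0 with the mouse block and to 1 to 2 without a library, and day 28, with 2, ranged from 1 to 3 without a library. Over any day, 3 became 1 (Anxa2) with the mouse block and 2 to 4 without a library. The pairing checks gave no sign that replicate numbers mark shared libraries, and the replicate block moved no other count by over 1.5 times except that of all genes on day 28.

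Over all genes, 2041 calls on day 7 became 1047 with the mouse block (1556 to 2255 without a library), 641 on day 14 became 199 (233 to 762), and 912 on day 21 ranged from 613 to 1060. On day 28, 138 became 363 without a filter, 32 with only the 2 days compared, 72 with the replicate block, 3 with the mouse block and 366 with DESeq2 (63 to 480 without a library). Against day 7, 171 calls on day 14 became 392 without a filter, 83 with only the 2 days and 317 with DESeq2 (26 to 318 without a library), 749 on day 21 became 223 with the mouse block (500 to 826), 1490 on day 28 became 922 with only the 2 days (1009 to 1717), and 1854 over any day ranged from 1423 to 2316. By construction, the mouse block sets libraries of unshared mice mainly against day 0 replicate 1; the cause of the other shifts was not tested. The share of higher calls on day 28 was 72.5%, with 62.0% by DESeq2 and 57.5% by limma, and on day 14 against day 7 it was 80.1% and 69.4% by DESeq2. The median of all genes on day 7 was 0.07, with 0.10 under RLE scaling and 0.17 with limma, and called annexin genes kept their directions relative to it. With 3 to 4 libraries a day and few counts for Anxa4 and Anxa11, smaller changes of these genes could not be detected.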

Other observations

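Of the 4 other annexin genes in the table, only Anxa8 passed the filter on low counts. Anxa8 had 1.49, 0, 1.49 and 1.31 CPM on day 0, which were counts of at most 1. On day 7 it had 24.9, 8.98, 5.98 and 42.0 CPM, and on day 14 it had 1.60, 60.0 and 27.4 CPM. Against a floor of 3 counts per library on day 0, its mean was at least 4.97-fold higher on day 7 (adjusted p = 0.0100 by edgeR). On day 14 its mean was at least 7.21-fold higher (adjusted p = 0.0144). These bounds are for means only, since day 7 replicate 3 had 3 counts and day 14 replicate 1 had 1 count. Anxa8 passed the filter through libraries of days 7 and 14, where it was high, so these calls are given as a description. Both bounds moved when single libraries were left out, an alternative chosen after seeing the data. The day 7 bound was 3.23-fold without day 7 replicate 4, and the day 14 bound was 3.52-fold without day 14 replicate 2 and 10.6-fold without day 14 replicate 1. The day 7 call was lost with the mouse number as a block (adjusted p = 0.103). The day 14 call was lost in the same way, by limma, and without day 14 replicate 2 (adjusted p = 0.188). Day 28 libraries had 0, 4.96 and 0 CPM of Anxa8. Anxa9 reached at most 25.6 CPM, in a library of day 28, and shares 879 bases of its last exon with Mindy1 on the other strand. Anxa13 had a count in 2 libraries, and Anxa10 had 0 counts in all 18.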
